A study of Mus musculus with 2 samples.

Results

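The perilipins and the CIDE proteins are the coat and fusion proteins of the lipid droplet (LD), the organelle in which adipocytes store triglyceride. All 8 mouse genes of both families were taken by symbol from the 32285 genes of the count tables: the 5 perilipins Plin1, Plin2, Plin3, Plin4 and Plin5, and the 3 CIDE genes Cidea, Cideb and Cidec. Their RNA was followed in single-nucleus RNA sequencing (snRNA-seq) of interscapular brown adipose tissue (BAT) from 8-week-old mice. The wild-type (WT) library came from Srsf1 flox/flox controls and the knockout (KO) library from Adipoq-Cre; Srsf1 flox/flox mice, so the controls carried the floxed alleles without Cre. Cre was driven by the Adipoq promoter, which is active in adipocytes of every fat depot, and the splicing factor gene Srsf1 was therefore targeted outside BAT as well. Each genotype was 1 library, and how many mice contributed to it was not given in the sources used here. Every difference between WT and KO below is thus also a difference between 2 libraries, with no replicate check and no p-value.

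Perilipins sit on the LD surface and control the access of lipases. Plin1 is the perilipin of the adipocyte, which holds back basal lipolysis and, once phosphorylated, releases the lipase coactivator encoded by Abhd5. Plin2 and Plin3 are widely expressed coats, Plin4 binds nascent droplets in adipocytes and muscle, and Plin5 ties droplets to mitochondria in oxidative tissues such as BAT. CIDE proteins gather at the contact between droplets and pass lipid from the smaller to the larger one. Cidea is the abundant CIDE gene of the multilocular brown adipocyte, Cidec (also called Fsp27) is that of the unilocular white adipocyte, and Cideb is mainly a liver gene.

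The make-up of both families differed between WT brown nuclei and the KO adipocyte nuclei whose brown marker sum lay below the limit for brown. In these KO nuclei Plin4 was 8.51-fold and Plin2 2.91-fold above the level in WT brown nuclei. Cidea was 17.9-fold and Plin5 3.26-fold below it. Plin1 and Cidec, the main coat and fusion genes of adipocytes, differed by less than 2-fold. With all adipocyte nuclei of each library pooled, the log2 ratios were 2.99 for Plin4, 1.49 for Plin2, -4.03 for Cidea and -1.51 for Plin5. In the 281 KO nuclei above the limit, Plin5 was within 2-fold of WT brown nuclei (-0.09) and Cidea was below them (-2.68).

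The genes lie on 6 chromosomes of GRCm38, with 3 perilipins together on chromosome 17. There, on the minus strand, Plin4 (56100591 to 56109803) and Plin5 (56111601 to 56117596) are 1797 bases apart, and Plin3 (56277476 to 56292873) starts 159879 bases beyond Plin5. Plin1 lies on chromosome 7 (79720218 to 79732903), Plin2 on chromosome 4 (86648386 to 86670060), Cideb on chromosome 14 (55754050 to 55758458) and Cidec on chromosome 6 (113424634 to 113435760). Plin4, Cidea and Cideb each overlap a gene of the opposite strand, Hdgfl2 by 17 bases, B430212C06Rik by 500 bases and Nop9 by 1451 bases, and the strand setting of the counting was not stated.

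The promoter windows of Plin2 and Plin4, the members that were higher in KO adipocytes, and of Plin5 (the first of its 2 start sites), the neighbour of Plin4 that was lower, are printed from 250 bases before to 50 bases after the RefSeq start site (GRCm38.p6), 5′ to 3′. Capitals mark matches, on either strand, to a TATA-type string (TATAA), the box CCAAT, the E-box CACGTG, a nuclear receptor half-site (AGGTCA), the GC box GGGCGG, or the cAMP response element (TGACGTCA) and its core TGACG, which lies within it.
Plin2 (chr4:86670010-86670309, minus strand): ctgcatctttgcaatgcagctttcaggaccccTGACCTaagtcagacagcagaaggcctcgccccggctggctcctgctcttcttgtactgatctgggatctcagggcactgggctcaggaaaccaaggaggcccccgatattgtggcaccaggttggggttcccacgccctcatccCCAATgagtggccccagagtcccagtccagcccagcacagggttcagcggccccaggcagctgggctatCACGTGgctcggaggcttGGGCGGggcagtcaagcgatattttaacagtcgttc
Plin4 (chr17:56109733-56110032, minus strand): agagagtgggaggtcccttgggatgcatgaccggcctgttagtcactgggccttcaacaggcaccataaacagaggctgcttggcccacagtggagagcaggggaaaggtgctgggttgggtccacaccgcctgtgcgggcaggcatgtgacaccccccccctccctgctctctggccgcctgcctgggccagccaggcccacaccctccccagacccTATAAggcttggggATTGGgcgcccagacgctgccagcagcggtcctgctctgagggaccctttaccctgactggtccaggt
Plin5 (chr17:56117499-56117798, minus strand): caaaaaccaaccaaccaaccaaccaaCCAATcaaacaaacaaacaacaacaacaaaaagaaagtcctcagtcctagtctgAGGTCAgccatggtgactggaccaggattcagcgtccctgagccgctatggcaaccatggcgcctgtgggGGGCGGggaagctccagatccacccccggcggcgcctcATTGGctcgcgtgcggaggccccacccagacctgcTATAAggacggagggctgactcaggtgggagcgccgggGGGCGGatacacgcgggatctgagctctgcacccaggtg

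The windows of the neighbours Plin4 and Plin5 both held TATAA, starting 32 and 27 bases before the start site, a string present in 24.9% of the 32851 RefSeq promoter windows of that length. A second RefSeq start site of Plin5, downstream of the first, had neither TATAA nor CCAAT in its window. Plin2 had no TATAA but held CACGTG across its start site, which 7.15% of windows contained. Plin2 and Plin5 also shared AGGTCA, the half-site of many nuclear receptors, at 218 bases (minus strand) and 170 bases before the start, against 16.3% of windows. CCAAT occurred in all 3 printed windows and in 37.4% of all windows, GGGCGG in Plin2 and Plin5 and in 35.7% of all windows, while TGACG and TGACGTCA were in none of the 3 and in 20.8% and 1.79% of all windows. The windows of Plin1 and Cidec held none of these strings, and of the 8 genes only Cidea had no entry. A match describes the letters only, and no binding was measured here.

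The libraries held 12846 WT and 11495 KO barcodes with 93102814 and 80090208 UMIs, and 52 of the 24341 barcodes in all occurred in both. Median depth was 3439.5 UMIs per WT barcode and 4363 per KO barcode. The median mitochondrial share was 1.10% in WT and 0.0491% in KO, so the libraries also differed in this respect. Of the 12771 WT and 11378 KO nuclei kept, 41.0% and 38.5% were given no class. Nuclei were classed by summed markers that include no perilipin or CIDE gene, and names stand for those sums. Srsf1 itself was at 192 CPM (the gene's UMIs over all UMIs of the class, scaled to 1e+06) in WT brown nuclei and 49.1 CPM in KO adipocyte nuclei, a log2 ratio of -1.97.

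WT BAT gave 3465 brown nuclei, 128 white-like nuclei and 182 other adipocyte nuclei. The KO library gave 281 nuclei with brown markers at the level set for brown, 275 white-like nuclei, and 1398 adipocyte nuclei that were neither, called KO adipocyte nuclei from here on. The brown marker sum was 173 per 10000 UMIs in WT brown nuclei, 118 in the KO brown-marker nuclei and 29.5 in KO adipocyte nuclei. The limit lay at 80, and 568 WT and 266 KO adipocyte nuclei had a sum of 60 to 100. Macrophages numbered 584 in WT and 2277 in KO. The names need qualification in KO. The KO brown-marker nuclei had a different mix of brown markers: Dio2, which activates thyroid hormone, was at 619 CPM in WT brown nuclei and 2.32 CPM in them, Ucp1 at 1942 and 252 CPM, Cox8b at 116 and 38.4 CPM and Elovl3 at 18.8 and 4.07 CPM, whereas Ppara (2874 and 3689 CPM), Pank1 (1354 and 2022 CPM), Kcnk3 (553 and 1022 CPM) and Cpt1b (422 and 528 CPM) were above the WT level. The white-like sum was 73.0 per 10000 UMIs in WT white-like nuclei and 21.3 in KO white-like nuclei, and Car3 fell from 4703 to 768 CPM between them, while Slc7a10 was at 514 and 667 CPM.

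**Figure D1:**
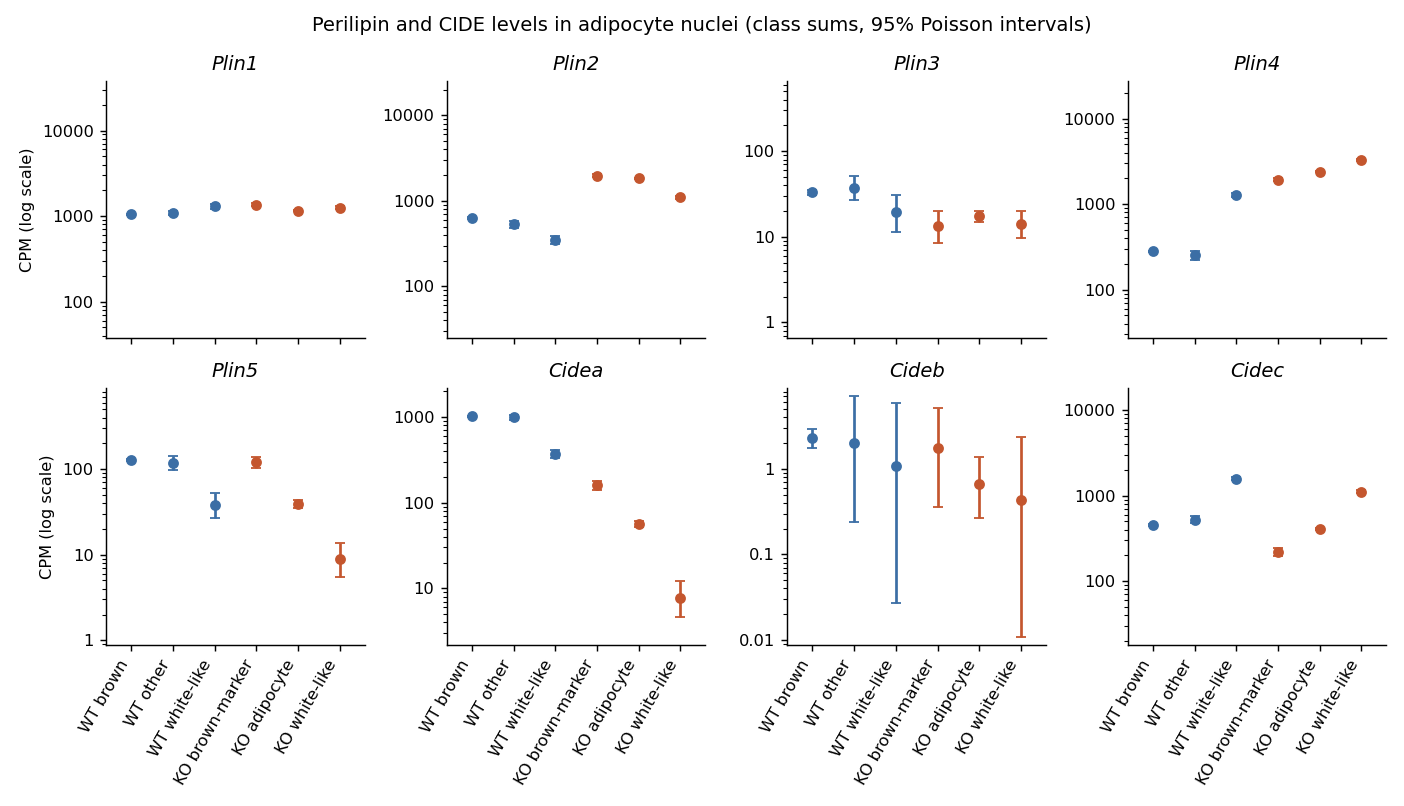
Level of each perilipin and CIDE gene (CPM, log scale, 3 decades in every panel) in the 6 adipocyte classes, WT in blue and KO in orange; points are class sums and bars 95% Poisson intervals. Plin4 stood at 281 CPM in WT brown nuclei and 2389 CPM in KO adipocyte nuclei, and Cidea at 1024 and 57.1 CPM.

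Plin1, the major adipocyte coat, was at 1046 CPM in WT brown nuclei (28645 UMIs) and 1159.5 CPM in KO adipocyte nuclei (12213 UMIs). The log2 ratio was 0.15 (95% counting interval 0.12 to 0.18), against a median of 0.16 over the 13984 genes tested, so Plin1 moved no more than the typical gene. Its levels in the other adipocyte classes, from 1079.5 CPM in the other WT adipocytes to 1356 CPM in KO brown-marker nuclei, were all close to these. Plin1 RNA was thus the flattest of the abundant members over the adipocyte classes.

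Plin2, the coat that most cells make when they store lipid, was at 630.2 CPM in WT brown nuclei (17256 UMIs) and 1836 CPM in KO adipocyte nuclei (19339 UMIs). The log2 ratio was 1.54 (1.51 to 1.57). It was also high, at 1978 CPM, in KO brown-marker nuclei. After each nucleus was thinned to 1000 UMIs, 43.5% of WT brown and 77.3% of KO adipocyte nuclei held a Plin2 UMI (91.2% and 97.3% at full depth, medians of 6878 and 6037.5 UMIs). Endothelial nuclei, which are not specialised in lipid storage and served as a check on free RNA, held one in 19.6% of WT and 27.9% of KO nuclei at the same thinned depth (medians of 2368 and 2498.5 UMIs before thinning). In both libraries adipocytes were above that background.

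Plin4, the largest perilipin protein, had the largest rise. It was at 281 CPM in WT brown nuclei (7687 UMIs) and 2389 CPM in KO adipocyte nuclei (25161 UMIs), a log2 ratio of 3.09 (3.05 to 3.13), and 94.7% of the genes tested had a ratio at or below it. The other WT adipocytes stood at 254 CPM, next to WT brown nuclei, and KO brown-marker nuclei at 1936 CPM, next to KO adipocyte nuclei. Thinned nuclei with a Plin4 UMI made up 22.6% of WT brown and 78.8% of KO adipocyte nuclei (75.4% and 94.6% unthinned), against 5.78% and 11.03% of endothelial nuclei.

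Plin5, the perilipin of oxidative tissue, went the other way although its gene is the immediate neighbour of Plin4. It fell from 128 CPM in WT brown nuclei (3492 UMIs) to 39.1 CPM in KO adipocyte nuclei (412 UMIs), a log2 ratio of -1.71 (-1.86 to -1.56). In the 281 KO brown-marker nuclei it stood at 119.7 CPM (206 UMIs), and the log2 ratio to WT brown nuclei was -0.09 (-0.30 to 0.11), an interval that includes 0. That ratio was -0.51 when brown nuclei were called from a brown sum of 40 per 10000 UMIs, and 0.38 after endothelial subtraction. Plin5 was thus low in KO adipocyte nuclei and within 2-fold of the WT level in the KO nuclei with a high brown marker sum. In the latter Ppara, Pank1 and Kcnk3 were above and Ucp1 and Dio2 far below the WT level. The brown markers and Plin5 are both adipocyte RNAs of the same nuclei, and the classes were split by the markers.

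Plin3, a cytosolic coat found in most cells, was scarce: 33.1 CPM in WT brown nuclei (907 UMIs) and 17.4 CPM in KO adipocyte nuclei (183 UMIs). The log2 ratio of -0.93 (-1.17 to -0.70) did not reach 2-fold. It was -2.02 once the endothelial level of each library was subtracted. That level was 34.6% of the adipocyte level in WT and 73.4% in KO, against 21.4% and 7.41% for Plin1. It may include Plin3 made by endothelial cells, so no change past 2-fold is drawn from Plin3 ratios after such subtraction.

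Cidea, the CIDE gene of brown fat (chromosome 18, 67343604 to 67367785, plus strand), showed the largest fall of the family. It was at 1024 CPM in WT brown nuclei (28040 UMIs) and 57.1 CPM in KO adipocyte nuclei (601 UMIs), a log2 ratio of -4.17 (-4.28 to -4.05), and 1.27% of the genes tested had a ratio at or below it. Unlike Plin5 it was also low in KO brown-marker nuclei, at 159.8 CPM (275 UMIs), a log2 ratio of -2.68 (-2.86 to -2.51). Of thinned nuclei, 61.8% of WT brown and 5.01% of KO adipocyte nuclei held a Cidea UMI (96.9% and 21.7% unthinned). Endothelial nuclei held one in 21.2% of WT and 0.437% of KO nuclei, so Cidea RNA outside adipocytes was common in the WT library and rare in the KO library.

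Cidec, the CIDE gene of large droplets, was at 455 CPM in WT brown nuclei (12449 UMIs) and 409 CPM in KO adipocyte nuclei (4303 UMIs). The log2 ratio was -0.15 (-0.20 to -0.10), and over 13 alternative settings it ran from -0.32 to 0.35 and kept its sign in 10. No direction is therefore given for Cidec between these classes. In KO brown-marker nuclei it was lower, at 219 CPM (376 UMIs), a log2 ratio of -1.06 (-1.21 to -0.91). That ratio was -0.67, within 2-fold, when brown nuclei were called from a brown sum of 40 per 10000 UMIs, and -0.90 after endothelial subtraction.

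Cideb was close to absent, with 63 UMIs in WT brown nuclei (2.30 CPM) and 7 in KO adipocyte nuclei (0.665 CPM). Its log2 ratio was -1.79 (-3.16 to -0.66), and it was -0.64 once the endothelial level was subtracted, so the counts are too few to describe further.

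All 8 members had at least 50 UMIs over WT brown and KO adipocyte nuclei together. Of them 2 were at least 2-fold higher in KO (Plin2, Plin4) and 3 at least 2-fold lower (Plin5, Cidea, Cideb). Over all genes tested, 23.7% were higher and 16.5% lower by that measure, so such shifts were frequent between these classes and the count itself does not set the family apart. KO brown-marker nuclei against WT brown nuclei also gave 2 higher (Plin2, Plin4) and 3 lower members (Plin3, Cidea, Cidec), with 13.4% and 19.2% of 12755 genes. The Plin3 ratio there was -1.31 and fell just within 2-fold, at -0.99, with a brown sum of 40. With all adipocyte nuclei pooled, 3775 in WT and 1954 in KO, 2 members were higher and 4 lower, against 23.0% and 16.3% of genes.

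The shares within each family put the shift in 1 figure. Cidea supplied 69.1% of CIDE UMIs in WT brown nuclei and 12.2% in KO adipocyte nuclei, and Cidec 30.7% and 87.6%. Among perilipin UMIs, Plin4 went from 13.3% to 43.9%, Plin1 from 49.4% to 21.3% and Plin5 from 6.02% to 0.719%, while Plin2 was at 29.8% and 33.7%. The CIDE pool of KO adipocyte nuclei was thus mainly Cidec, as it was in WT white-like nuclei. There Cidec made up 80.9% of CIDE UMIs and Plin4 43.1% of perilipin UMIs. The level of Cidec itself was 455 CPM in WT brown, 409 CPM in KO adipocyte and 1582 CPM in WT white-like nuclei. Its larger share in KO adipocyte nuclei thus went with less Cidea and not with more Cidec.

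RNA of the genes used as macrophage markers was also more frequent in KO adipocyte nuclei, and its source was not tested. All 9 lipid-associated macrophage markers had UMIs in both classes, none being at 0, and their sum was 0.225 per 10000 UMIs in WT brown nuclei, 6.35 in KO adipocyte nuclei and 43.7 in lipid-associated macrophages of the KO. The 12 general macrophage markers were likewise all present, at 0.752, 3.28 and, in KO macrophages, 61.5 per 10000 UMIs. The part of this in the adipocyte levels was not tested. Plin4 and Plin2 were at 114 and 741 CPM in KO macrophages and at 2389 and 1836 CPM in KO adipocyte nuclei. In lipid-associated macrophages of the KO, Plin2 was at 1126 CPM, above the 630 CPM of WT brown nuclei.

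**Figure D2:**
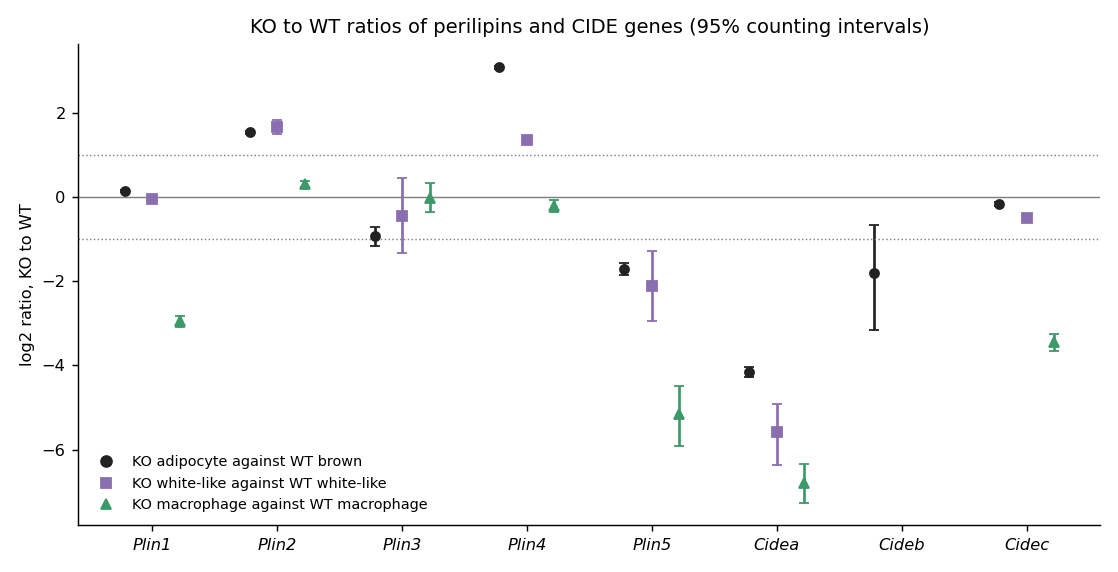
Log2 ratios of the members for KO adipocyte nuclei against WT brown nuclei, KO against WT white-like nuclei and KO against WT macrophages, with 95% counting intervals and dotted lines at 2-fold; members under 50 UMIs are not drawn. Plin4 lay at 3.09, 1.36 and -0.22, and Cidea at -4.17, -5.59 and -6.80.

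The white-like nuclei of WT BAT show the family of a white-type adipocyte next to brown ones from the same library. Cidec was at 1582 CPM in WT white-like nuclei against 455 CPM in WT brown nuclei (log2 ratio 1.80, 1.72 to 1.88), and Plin4 at 1288 against 281 CPM (2.20, 2.11 to 2.29). Plin5 was lower, 38.5 against 128 CPM (-1.73, -2.25 to -1.26), as was Cidea, 372 against 1024 CPM (-1.46, -1.62 to -1.31). Plin2 was at 346 CPM in WT white-like nuclei, a log2 ratio of -0.86 (-1.03 to -0.71), and Plin1 at 1297 CPM, a ratio of 0.31. In all, 2 members were higher and 3 lower, counting Cideb with 1 UMI against 63 (-1.11, -6.43 to 1.42), where 10.9% and 11.3% of 12632 genes were. After the endothelial level was subtracted Plin2 (-1.85) and Plin3 (-1.47 in place of -0.78) were also past 2-fold in this comparison, and Cidea was at -2.84 and Plin5 at -5.76. The Plin4, Cidea and Plin5 differences of WT white-like from WT brown nuclei had the same direction as those of KO adipocyte from WT brown nuclei. The Plin2 ratios of -0.86 and 1.54 had opposite ones. Cidec was at 1.80 in the first comparison and within 2-fold, at -0.15, in the second. Both comparisons share the WT brown nuclei.

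Between genotypes, white-like nuclei had the same 2 genes higher in KO. Plin2 was at 346 CPM in WT (324 UMIs) and 1105 CPM in KO (2585 UMIs), a log2 ratio of 1.67 (1.51 to 1.85) that was 2.67 after endothelial subtraction, and Plin4 at 1288 CPM (1206 UMIs) and 3312 CPM (7749 UMIs), a ratio of 1.36 (1.27 to 1.45). The Plin4 level of KO white-like nuclei was the highest of any member in any adipocyte class. Srsf1 was lower in these nuclei too, at 173 CPM in WT and 84.2 CPM in KO, a log2 ratio of -1.04 (-1.35 to -0.73). Outside adipocytes the log2 ratios of Srsf1 were -0.84 in macrophages and -0.94 in mural nuclei. The ratios were -0.66 in endothelial nuclei and -0.64 in adipose stem and progenitor cells. In that order, the adipocyte marker sum stood at 41.4%, 58.4%, 35.4% and 47.1% of the adipocyte level in WT. It stood at 18.5%, 36.3%, 32.6% and 12.1% in KO. The part of free adipocyte RNA in these ratios was not tested, and no direction is drawn for Srsf1 outside adipocytes. The cause of the lower level in white-like nuclei was not tested either.

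Cidea was nearly lost, from 372 CPM in WT white-like nuclei (348 UMIs) to 7.69 CPM in KO (18 UMIs), a log2 ratio of -5.59 (-6.37 to -4.91) or 48.3-fold. That KO level was near the 6.34 CPM of KO endothelial nuclei, and the WT endothelial level was 266 CPM. Plin5 was at 38.5 CPM (36 UMIs) and 8.98 CPM (21 UMIs), a log2 ratio of -2.10 (-2.95 to -1.28), but the WT level barely exceeded the 36.8 CPM of WT endothelial nuclei. Subtracting the endothelial level turned the Plin5 ratio to 2.06, so no direction is given for Plin5 in white-like nuclei.

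Plin1 was level, at 1297 and 1254 CPM, a log2 ratio of -0.05 (-0.15 to 0.05), and Cidec was at 1582 and 1116 CPM, a ratio of -0.50 (-0.60 to -0.41). Plin3 had 18 and 33 UMIs (-0.45, -1.32 to 0.47). Cideb had 1 UMI in each library and was not tested. Of the 7 members tested, 2 were higher and 2 lower in KO, against 14.7% and 9.48% of 7331 genes. Within the KO library, white-like nuclei differed from KO adipocyte nuclei by more than 2-fold in Cidec, which was higher (1.45, 1.38 to 1.52), and in Plin5 (-2.12, -2.83 to -1.49) and Cidea (-2.89, -3.66 to -2.22), which were lower, against 3.91% and 7.35% of 11421 genes. After endothelial subtraction Plin2 (-1.04) and Plin3 (-1.36) also passed 2-fold there, and Cidea was at -5.23.

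The brown marker sum varied among nuclei of each class, and the members followed it unequally. Among KO adipocyte nuclei ranked by that sum in quartiles, whose medians ran from 5.62 to 59.6 per 10000 UMIs, Cidea was at 12.5, 29.5, 71.5 and 111 CPM from the lowest to the highest quartile. Plin5 was at 15.5, 21.7, 41.7 and 76.5 CPM. Plin1 also increased over the quartiles, from 942 to 1384 CPM, and Cidec decreased from 515 to 330.5 CPM. Plin2 was at 1646 CPM in the lowest and 2038 CPM in the highest quartile, and Plin4 had no order, at 2145, 2640, 2390 and 2333 CPM.

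In WT brown nuclei, with quartile medians from 101 to 269 per 10000 UMIs, Cidea was at 1019, 1000.3, 1035 and 1041 CPM and Plin5 between 125 and 129.6 CPM in every quartile. Plin2 ran from 570.3 CPM in the lowest to 733 CPM in the highest quartile and Plin4 from 251 to 337 CPM, while Cidec ran from 502 to 381 CPM. No KO quartile reached the WT levels of Cidea, and no WT quartile the KO levels of Plin4 or Plin2. These quartiles are of nuclei from 1 library each and describe those libraries.

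**Figure D3:**
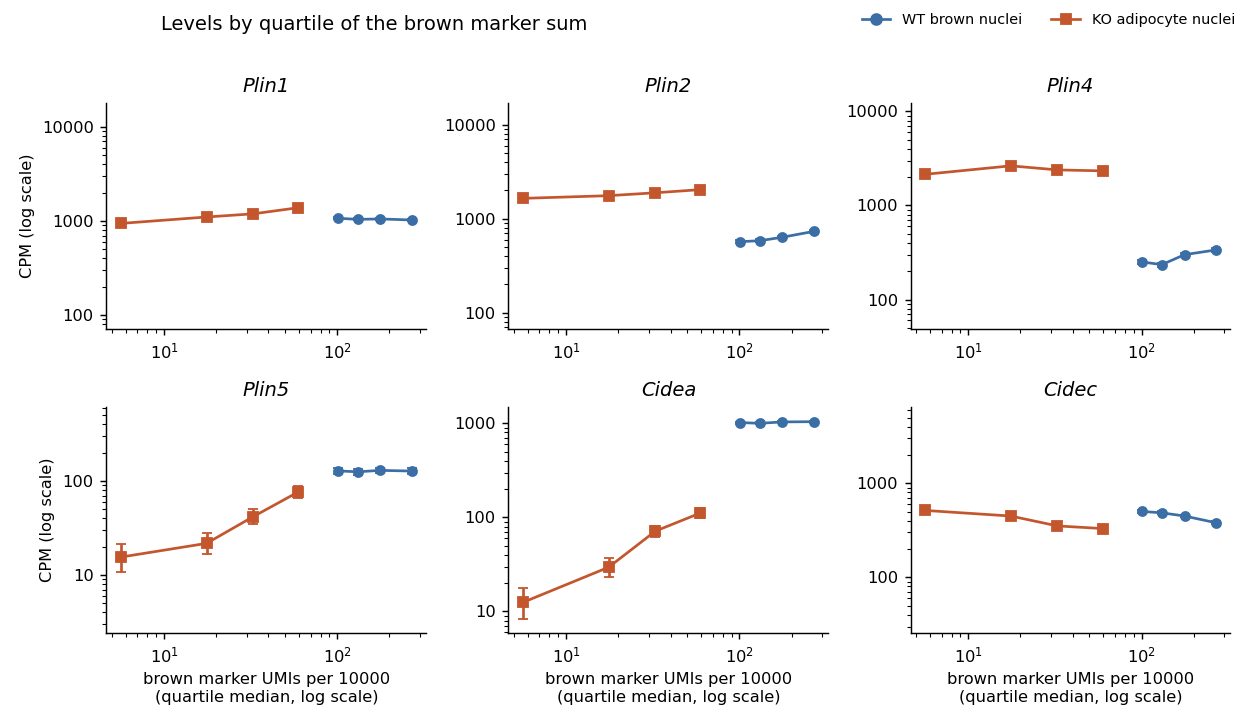
Levels of 6 members (CPM, log scale) against the median brown marker sum of each quartile (UMIs per 10000, log scale) in WT brown nuclei (circles) and KO adipocyte nuclei (squares), with 95% Poisson intervals. In KO adipocyte nuclei Cidea ran from 12.5 to 111 CPM and Plin5 from 15.5 to 76.5 CPM, and in WT brown nuclei both were flat.

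Plin2 was the most abundant perilipin in macrophages, with 48.2% of perilipin UMIs in WT and 79.3% in KO. Plin2 also led in endothelial nuclei (40.8% and 60.6%) and in adipose stem and progenitor cells of the KO (53.5%), so this was not particular to macrophages. It was at 595 CPM in WT macrophages (2709 UMIs) and 741 CPM in KO macrophages (8746 UMIs), a log2 ratio of 0.31 (0.25 to 0.38) that was -0.12 after endothelial subtraction. Lipid-associated macrophages, called by markers such as Trem2 and Gpnmb, had more of it than resident macrophages, called by Lyve1 and Cd163. In KO, 540 lipid-associated nuclei were at 1126 CPM and 1115 resident nuclei at 504 CPM, a log2 ratio of 1.16 (1.09 to 1.23). In WT, 65 and 380 nuclei gave 1269.7 and 494 CPM, a ratio of 1.36 (1.23 to 1.49). After endothelial subtraction these ratios were 2.95 and 2.01. Within each state KO macrophages differed from WT ones by a log2 ratio of -0.17 (-0.29 to -0.05) for lipid-associated and 0.03 (-0.06 to 0.12) for resident macrophages. After endothelial subtraction these were -0.53 and, past 2-fold, -1.47. Endothelial Plin2 stood at 38.4% of the adipocyte level in WT and 23.7% in KO, against 21.4% and 7.41% for Plin1. It may include Plin2 made by endothelial cells. No likeness or difference of the genotypes is therefore drawn from these ratios. Clusters of macrophages were also split by library: 1 resident cluster held 367 WT and 4 KO nuclei, and the other two held 1 WT nucleus each beside 566 and 931 KO nuclei. The lipid-associated clusters held 14 WT and 385 KO nuclei, and 1 and 905. Lipid-associated nuclei were 540 of 2277 macrophages in KO and 65 of 584 in WT, numbers that depend on the limits set on the sums.

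Plin3 also stood higher in lipid-associated macrophages of the KO, at 32.1 CPM (110 UMIs) against 16.5 CPM (95 UMIs) in resident ones, a log2 ratio of 0.96 (0.55 to 1.38) that did not reach 2-fold but was 2.17 after endothelial subtraction. That was above the Plin3 level of KO adipocyte nuclei, 17.4 CPM. Over all genes, 4.32% were higher and 5.87% lower in lipid-associated than in resident KO macrophages, and 1 of the 5 members tested was higher (Plin2) and 1 lower (Cidec, 42 against 142 UMIs, a log2 ratio of -1.01 that was 0.17 with Leiden clusters in place of the marker sums). In WT, 1 of 7 members tested was higher and none lower, with 5.18% and 7.81% of genes.

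The adipocyte members behaved differently in macrophages. Cidea was at 395 CPM in WT and 3.56 CPM in KO macrophages (log2 ratio -6.80), Plin5 at 57.1 and 1.61 CPM (-5.15), Cidec at 222 and 20.3 CPM (-3.45) and Plin1 at 428 and 55.4 CPM (-2.95). These 4 of 7 tested members were lower and none was higher, where 19.0% of 12154 genes were lower and 7.23% higher. Plin4 was at 132.5 and 114 CPM (-0.22) and Plin3 at 22.2 and 22.0 CPM.

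In WT macrophages these genes stood at like fractions of the level in WT adipocytes: 40.6% for Plin1, 42.5% for Plin4, 45.9% for Plin5, 39.4% for Cidea and 44.9% for Cidec. The sum of the 12 adipocyte markers stood at 41.4%, next to them. Plin2, at 96.4%, and Plin3, at 67.6%, were above that. In KO macrophages the 5 genes were at 3.67% to 5.81% of the KO adipocyte level and Plin2 at 42.7%, with the marker sum, which includes Pparg, at 18.5%. In KO macrophages the same 5 genes also lay below the KO endothelial level (88.8 CPM for Plin1, 165 for Plin4, 2.00 for Plin5, 6.34 for Cidea and 39.4 for Cidec), so subtracting that level left them no ratio. The part of free adipocyte RNA in these levels was not tested, and no direction is drawn from their ratios.

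**Figure D4:**
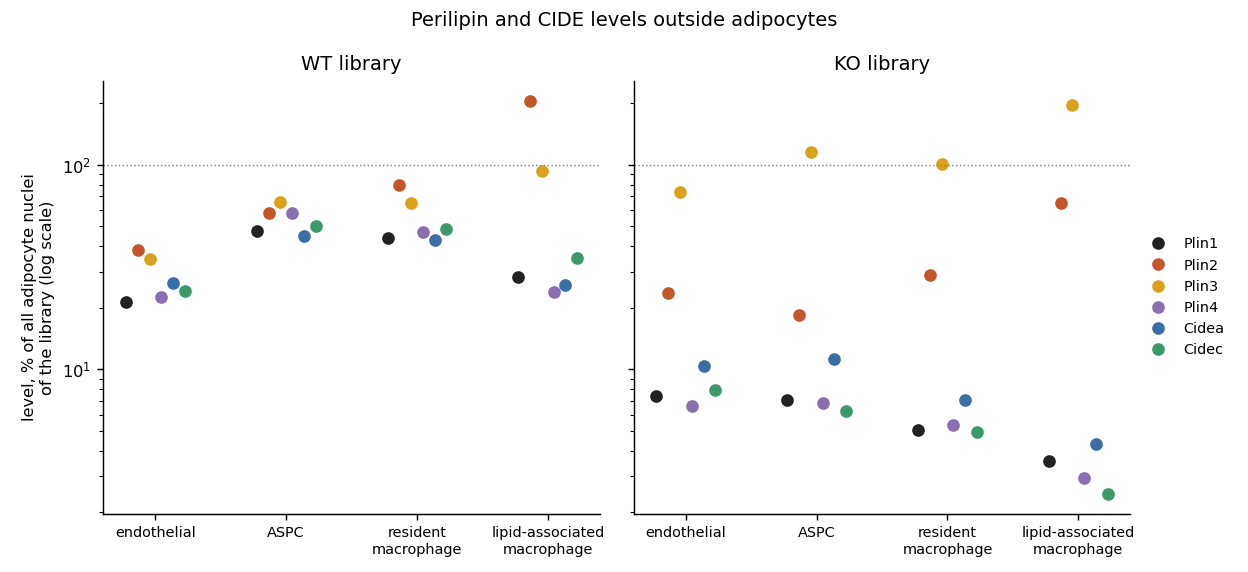
Level of 6 members in endothelial nuclei, ASPCs (adipose stem and progenitor cells) and both macrophage states, as a percentage (log scale) of the level in all adipocyte nuclei of the same library, WT left and KO right, with a dotted line at 100%; points are class sums. In lipid-associated macrophages Plin2 stood at 206% in WT and 64.9% in KO, and Cidea at 25.9% and 4.29%.

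The Cidea level of stromal and vascular nuclei also differed between the libraries, but not all members behaved as in macrophages. In adipose stem and progenitor cells (ASPCs) Cidea was at 447 CPM in WT and 6.88 CPM in KO, and in endothelial nuclei at 266 and 6.34 CPM. The WT values were 44.6% and 26.6% of the WT adipocyte level, where the adipocyte marker sum stood at 47.1% and 35.4%. The part of free adipocyte RNA in the Cidea levels was not tested, and no direction is drawn from them. Plin2 was at 357 and 318 CPM in ASPCs (log2 ratio -0.16, which turned to 1.09 with Leiden clusters), 237 and 412 CPM in endothelial nuclei (0.79, 0.68 to 0.91), and 371 and 760.5 CPM in mural nuclei (1.04, 0.93 to 1.14). Plin4 was higher in KO endothelial nuclei, 165 against 70.7 CPM (1.22, 1.03 to 1.42, and 3.03 with Leiden clusters), and in KO mural nuclei, 529 against 184 CPM (1.53, 1.38 to 1.67). The Plin4 ratio of endothelial nuclei was 0.94 without the highest doublet scores and the Plin2 ratio of mural nuclei 0.72 with fixed limits on genes, both within 2-fold. Both genes were also those with more RNA in KO adipocytes, and the part of free adipocyte RNA in these 2 classes was not tested.

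Among 20 class profiles, 10 of each library, the members most alike were Plin5 and Cidea (Pearson r = 0.948 on log2(CPM + 1)) and Plin1 and Cidec (r = 0.947). Plin2 and Plin3 had no partner in the family, with r of at most 0.49 and 0.38. Of 12837 other genes, the 3 most like Cidea were Erbb4 (0.992), Ucp1 (0.992), which encodes the uncoupling protein of brown fat, and Slc27a2 (0.989). Among the 3 most like Plin5 were Aspg (0.991) and Esrrg (0.986), a nuclear receptor of oxidative cells. Plin1 was closest to Mlxipl (0.992), Abhd5 (0.990) and Sycp3 (0.988), and Cidec to Pnpla3 (0.986), Klf15 (0.986) and Lgals12 (0.985). Among the 3 most like Plin4 were Apex2 (0.976) and Dcun1d4 (0.966), and Plin2 was closest to Eif4a1 (0.937), Rptor (0.935) and Atp6v1h (0.933). Plin3 and Cideb had looser partners, R3hdm1 (0.802) and Pitpnm2os1 (0.826) being the nearest. Ucp1, Esrrg and Mlxipl were also markers that defined the classes, and profiles of 1 library share its free RNA and depth, so these values are descriptions.

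The other genes of the LD were taken from a list of 65, of which 64 were in the tables. Between KO adipocyte and WT brown nuclei 59 could be tested, and 8 were higher, 9 lower and 42 within 2-fold. These are 13.6% and 15.3%, against the 23.7% and 16.5% of all genes, and the median log2 ratio was 0.09 against 0.16.

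The lipases that perilipins control were level or lower. Pnpla2, the adipose triglyceride lipase gene, fell from 210.0 to 104 CPM (log2 ratio -1.02), while Lipe, hormone-sensitive lipase, was at 889 and 725 CPM (-0.29) and Abhd5, the coactivator released by Plin1, at 279.7 and 324 CPM (0.21). The lipase inhibitor G0s2 fell from 594 to 149 CPM, and the related inhibitor Hilpda was scarce at 2.74 and 3.80 CPM (0.47). Ces1d, a carboxylesterase of adipocytes, fell with a log2 ratio of -2.67. Of the 10 genes of lipases and their regulators tested, 3 were lower and none higher, against 16.5% and 23.7% of all genes.

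Most genes of triglyceride synthesis were within 2-fold. Dgat1, which makes triglyceride from diacylglycerol, was at 320.4 and 161 CPM, just within 2-fold, and Dgat2, which does the same at the growing droplet, at 592 and 523 CPM (-0.18). Of 12 such genes tested 2 were higher and 2 lower (16.7% each), against 23.7% and 16.5% of all genes, and 8 were within 2-fold. For droplet formation, Bscl2 (seipin) was at 52.0 and 62.1 CPM (0.25), and Clstn3, whose adipocyte-specific product limits CIDE-driven fusion, had the lowest ratio of the list, -2.91. Acsl4, an acyl-CoA synthetase, rose from 34.9 to 150.0 CPM (2.10). Of the 16 formation genes tested 2 were higher and 2 lower (12.5% each), below the same shares of all genes.

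The 2 largest rises were in cholesterol ester metabolism: Nceh1, a cholesterol ester hydrolase, went from 3.87 to 49.1 CPM and Soat1, the enzyme that makes cholesterol esters, from 2.41 to 30.4 CPM, both with log2 ratios of 3.66. Both were more abundant in KO macrophages, at 317 and 254 CPM, and the macrophage marker sums given above rose in the same nuclei. The part of macrophage RNA in these ratios was not tested.

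**Figure D5:**
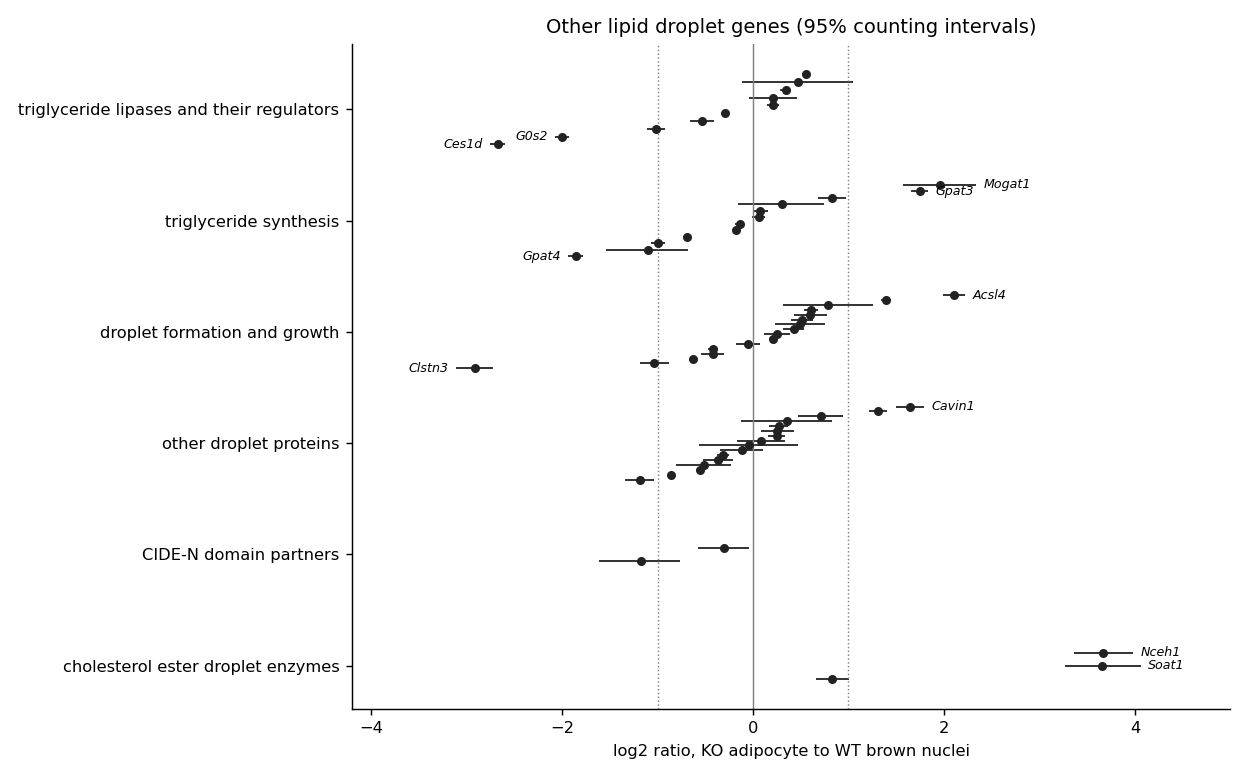
Log2 ratios of KO adipocyte to WT brown nuclei for the 59 tested genes of the LD list, by role, with 95% counting intervals and dotted lines at 2-fold; genes past a log2 ratio of 1.5 in size are named. Most points lie between the lines, 8 lie above and 9 below, from Clstn3 at -2.91 to Nceh1 at 3.66.

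In white-like nuclei 49 of the list could be tested, with 6 higher and 4 lower in KO (12.2% and 8.16%, against 14.7% and 9.48% of all genes) and a median log2 ratio of 0.03 against 0.13 over all genes. The highest were Nceh1 (3.38, 2 UMIs in WT and 52 in KO), Soat1 (2.82, 3 and 53 UMIs) and Lss (1.91), a sterol synthesis enzyme, and the lowest Ces1d (-2.58), Clstn3 (-1.64) and Mettl7a1 (-1.22). Pnpla2 was at -0.86, Lipe at -0.64, Abhd5 at -0.01, G0s2 at -1.02, Bscl2 at 0.19, Dgat1 at -0.92 and Dgat2 at -0.09, and Hilpda, with 4 and 5 UMIs, was not tested. Ces1d, Clstn3 and G0s2 were thus lower in both adipocyte comparisons, which share no nuclei but share the 2 libraries.

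In macrophages 54 of the list were tested, 25 lower and 1 higher in KO (46.3% and 1.85%, against 19.0% and 7.23% of all genes), with a median log2 ratio of -0.66 against -0.04. The higher gene was Soat1 (1.04), and the lowest were Clstn3 (-5.24), Ces1d (-5.08) and G0s2 (-4.55). Pnpla2 (-2.34), Lipe (-2.74), Abhd5 (-1.59), Dgat1 (-2.84) and Dgat2 (-3.75) were low as well, with Bscl2 at -0.86 and Hilpda at -0.67. The adipocyte marker sum of the same macrophages was 61.0 per 10000 UMIs in WT and 15.1 in KO, and its part in these ratios was not tested.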

How the data were processed

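Interscapular BAT nuclei were profiled by 10x 3′ snRNA-seq. The authors' deposited tables held raw UMI counts per gene and barcode, 1 matrix per library, on mm10 (GRCm38). The submitters' processing notes name Cell Ranger 5.0.0 and Seurat 3.1.1, the study's methods give another Cell Ranger version for alignment, and whether intronic reads were counted was not given in the sources used here. If they were, levels would include unspliced RNA.

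Kept nuclei had at least 200 genes, at most 10% mitochondrial UMIs, and log UMI and log gene totals no further than 3 median absolute deviations from their library's median. No doublet caller was used in the main classes: Scrublet (scanpy) called 0 WT nuclei and 20.6% of KO nuclei (12.0% of KO adipocyte nuclei). The highest 10% of scores were therefore left out only as an alternative. That removed 47 of the 1398 KO adipocyte nuclei, fewer than the 168 called, so called nuclei remained in it. A nucleus with at least 1500 UMIs went to the class whose marker sum, over the library mean, was at least 1 and at least 2 times the next, with at least 5 marker UMIs. Adipocytes were white-like with at least 3 white-like UMIs and a white-like sum at least 0.5 of the brown sum, and otherwise brown with a brown sum of at least 80 per 10000 UMIs. Macrophages were lipid-associated or resident with at least 5 UMIs of that list and at least 2 times the other. These limits were set after the distributions of the sums were seen.

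For each class the UMIs of its nuclei were added up and expressed as CPM of all UMIs, with exact Poisson intervals. Log2 ratios have exact conditional binomial intervals, and shares of nuclei have Clopper-Pearson intervals, all at 95% and for counting error only. With 1 library per genotype no test was run. A gene was counted as tested with at least 50 UMIs over both sides and as higher or lower past 2-fold. For shares of nuclei with a UMI, each nucleus was thinned to 1000 UMIs, and none of the classed nuclei was shallower. Named genes were all 8 members, and from the LD list, per comparison, up to 3 highest and 3 lowest past 2-fold plus Pnpla2, Lipe, Abhd5, G0s2, Hilpda, Bscl2, Dgat1 and Dgat2, and for each member the 3 genes with the closest profile among those with at least 500 UMIs. Some of these closest genes are not reported here. The members and lists were chosen with earlier results of these data known. Positions are from GENCODE vM21 and promoters from RefSeq. Scripts were tested on simulated data. Python 3.11.15, numpy 2.4.6, scipy 1.17.1, pandas 2.3.3, scanpy 1.11.5 and igraph 0.11.9 were used. Alternatives changed the filter, the marker limits, the class calls, the total, the free RNA, the centring, the doublets, the depth, the UMI minimum and the fold. Limits of 3000 UMIs, a brown sum of 40 and a white-like sum equal to the brown sum were added after the data were seen.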

Additional observations from a re-analysis of the deposited data

How the results depend on the processing

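With 1 library per genotype, no value here separates genotype from library, and intervals cover counting error only. No paired analysis was possible because each genotype was 1 library and the labels carry no replicate numbers. Between KO adipocyte and WT brown nuclei, 5 of 8 members were past 2-fold, and this count stayed within 1.5 times its value under every alternative that gave one. There the log2 ratio of Plin4 ran from 2.93 to 3.40, Plin2 from 1.38 to 1.86, Plin5 from -2.30 to -1.29 and Cidea from -4.76 to -3.90. With Leiden clusters in place of marker sums no KO cluster was white-like or brown, so those comparisons had no value. In macrophages the Plin2 ratio was -0.12 after endothelial subtraction, and that of Plin4 was 1.39 with Leiden clusters.

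Among counts, the members past 2-fold in white-like nuclei were 2 instead of 4 after thinning, and those in macrophages 0 instead of 4 after endothelial subtraction, where the 4 lay below the KO endothelial level and had no ratio. LD genes higher in KO adipocyte than WT brown nuclei were 14 instead of 8 at 1.5-fold. In white-like nuclei the higher LD genes, 6 as reported, were 3 with a stricter limit on the sums, with endothelial subtraction, without the highest Scrublet scores, or with the white-like sum at least equal to the brown sum. They were 1 after thinning or with a minimum of 200 UMIs, and 11 at 1.5-fold. The lower LD genes, 4 as reported, were 2 after thinning and 10 at 1.5-fold. In macrophages the single higher LD gene became 0 with fixed limits, a stricter limit, Leiden clusters, means over nuclei, without the highest Scrublet scores or after thinning, 4 after endothelial subtraction, 2 with centred ratios, 7 at 1.5-fold and 2 with at least 3000 UMIs. The 25 lower ones became 12 with Leiden clusters, 8 after endothelial subtraction and 16 after thinning. The cause was not tested except where fewer UMIs or another fold set the count by construction. Of ratios of single members past 2-fold, 6 changed direction. With Leiden clusters, KO against WT, Plin1 was 0.54 and Cidec 0.33 in ASPCs, Plin1 was 0.42 and Cidec 0.22 in endothelial nuclei, and Cidec was 0.17 in lipid-associated against resident KO macrophages, and Plin5 in white-like nuclei was 2.06 after endothelial subtraction. The other ratios stayed inside the counting interval of the reported value in 891 cases and left it in 290.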

Other observations

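Nuclei classed by skeletal muscle markers, 27 in WT and 45 in KO, were too few for a comparison of their own. Plin2 was at 343 CPM (75 UMIs) in WT and 2970.2 CPM (1638 UMIs) in KO, the latter above every adipocyte class. The muscle marker sum was 253 per 10000 UMIs in WT and 58.9 in KO, and the adipocyte marker sum was 81.5 and 33.2, so these nuclei differed between the libraries in their markers as well. Plin5, which muscle also makes, was at 50.4 CPM (11 UMIs) and 14.5 CPM (8 UMIs).

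Schwann-marker nuclei, 221 in WT and 119 in KO, held Plin4 at 479.6 CPM in WT and 1354 CPM in KO, and Cidea at 691 and 9.40 CPM. KO macrophages and endothelial nuclei had Plin4 at 114 and 165 CPM, and the adipocyte marker sum was 34.2 per 10000 UMIs in KO Schwann-marker nuclei, 15.1 in KO macrophages and 26.7 in KO endothelial nuclei. For WT Schwann-marker nuclei that sum stood at 76.4% of the WT adipocyte level, beside 83.2% for Plin1, 68.9% for Cidea and 154% for Plin4. The part of free adipocyte RNA in these levels was not tested.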
